A study of Bos taurus with 8 samples.

Results

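Cytosolic ribosomal protein genes were followed through 4 days of bovine development, from the morula to the late blastocyst. A gene was taken as a member when its symbol was RPS or RPL with a number, an optional A, X, Y or L and an optional further number, or was RPSA, RPLP0, RPLP1 or RPLP2. Ribosomal S6 kinases and genes with locus names were left out. The rule found 82 of the 18825 genes in the table, 33 of the small subunit and 49 of the large subunit. It used names and no measured value, but the members were chosen with earlier results of these data known. Of the 82, 81 passed the filter on low values and were tested. The member that did not was RPL10L. RPL3L, RPL39L and RPL41 were not analysed here.

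A cytosolic ribosome joins a small subunit, which reads the messenger RNA, to a large subunit, which forms the peptide bond. Each subunit is built on ribosomal RNA in the nucleolus from proteins that are needed in fixed ratios, and messengers of these proteins share a pyrimidine tract at the 5′ end through which mTOR signalling controls their translation. In early embryos ribosome production starts with activation of the embryo's own genome, before the outer trophectoderm, the epithelium of the future placenta, separates from the inner cell mass, which then divides into epiblast and hypoblast.

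The cells came from wildtype embryos of cattle, taken 6, 7, 8 or 9 days after fertilization, with no treatment named for them. Polyadenylated RNA of 286 single cells in 6 libraries was used, and 2 further libraries, from embryos injected with BE3 messenger RNA alone or with SOX2 guides, were not analysed here. The authors' cell table gives each cell a class and a day: Morula on day 6 (58 cells), EB on day 7 (39), MB ICM (51) and MB TE (37) on day 8, and LB EPI (45), LB PE (25) and LB TE (31) on day 9. In the field's usage TE stands for trophectoderm, ICM for the inner cell mass, EPI for epiblast and PE for primitive endoderm, the hypoblast of cattle. Labels name no embryo, so the library stands as the replicate, and p-values measure how far libraries spread, which can be technical. Levels were averaged within each library and class that held at least 3 cells, giving 16 averages. Cells of smaller groups entered no average. CPM denotes reads per 1000000 reads of the cell. Day 6 and 7 averages came from replicates 4 and 6, and those of days 8 and 9 from replicates 1, 2, 3 and 5, so the step from day 7 to day 8 and the libraries cannot be told apart.

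A cell held a median of 150770.5 reads (range 2633 to 747345), and 57 cells held under 50000. Of 48 cell barcodes 46 recurred in all 6 libraries, and 0 columns of values were identical. The 5 trophectoderm markers summed to 28204 to 55498 CPM in the TE averages and 1204 to 5750 CPM in the others, and the 4 epiblast markers to 2038 to 2326 CPM in LB EPI and at most 656 CPM elsewhere. Hypoblast markers were highest in LB PE (5431 to 5571 CPM) and MB ICM (3776 to 3909 CPM), although SOX17 was at 0 in LB PE. In the Morula average of replicate 6, 10 genes of cumulus and granulosa cells summed to 882 CPM, of which INHBA gave 809 CPM. The median cell of that average had a sum of 37.2 CPM, and 1 cell reached 35162 CPM. The 10 genes summed to 10.6 CPM in Morula of replicate 4 and to 169 to 302 CPM in the LB TE averages.

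Ribosomal protein genes were detected nearly everywhere. Reads of 56 members were found in every one of the 286 cells, and 80 members had a read in over 90% of cells. RPS9, a protein of the small subunit, was detected in 159 cells, with averages of 2.26 to 30.0 CPM. RPL10L, a relative of RPL10 best known from the testis, had 7 reads in 3 cells, all 3 of them Morula cells of replicate 6. None of the 228 cells outside Morula had a read of it, which allows up to 1.32% of cells with a read at this depth (3 counts, counting error alone) and sets no limit on cells that express it. Many of these genes have near-identical processed copies in mammalian genomes, so the division of reads between a member and its copies is uncertain.

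Together the 82 genes took between 1.41% and 25.2% of a cell's reads. In the Morula averages they took 13.9% (replicate 4) and 9.52% (replicate 6), and in the EB average, which rests on replicate 4 alone, 12.3%. On day 8 they took 16.5%, 15.2% and 18.5% in MB ICM (replicates 1, 2 and 5) and 12.2%, 12.1% and 11.9% in MB TE (replicates 1, 2 and 3). The 2 sets of day 8 averages did not overlap. The MB ICM average of replicate 5 rests on 5 cells and the MB TE average of replicate 3 on 3. With the reads of those 3 cells summed the share was 10.5%. On day 9 they took 17.4%, 17.5% and 18.7% in LB EPI (replicates 2, 3 and 5), 14.4% and 13.8% in LB TE (replicates 3 and 5), and 14.5% and 18.8% in LB PE (replicates 3 and 5). LB TE lay below LB EPI in both libraries that held at least 3 cells of each class. In replicate 2 the only LB TE cell, which entered no average, was at 18.9%, above the LB EPI average of 17.4%. LB PE lay with LB TE in replicate 3 and with LB EPI in replicate 5.

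**Figure D1:**
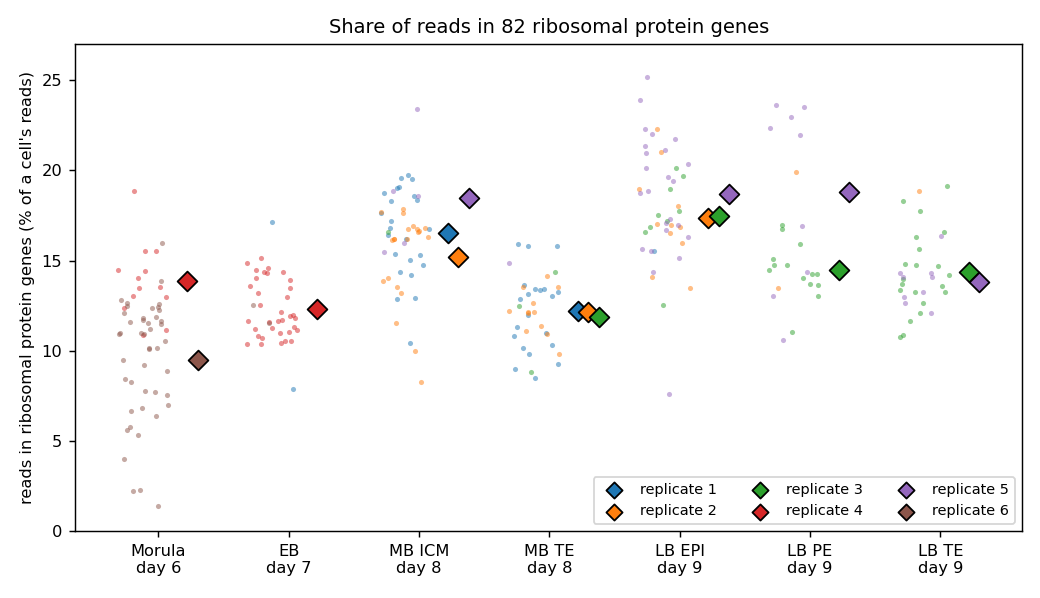
Share of each cell's reads in the 82 ribosomal protein genes (y axis, percent) by class and day (x axis), where small points are cells, diamonds are the 16 averages and colours are the 6 libraries. The 3 MB TE diamonds sit at 11.9% to 12.2%, below the 3 MB ICM diamonds at 15.2% to 18.5%.

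As class means the share was 11.7% ± 3.07 in Morula (SD, n = 2), 12.3% in EB (n = 1), 16.7% ± 1.64 in MB ICM (n = 3), 12.1% ± 0.160 in MB TE (n = 3), 17.8% ± 0.725 in LB EPI (n = 3), 16.7% ± 3.07 in LB PE (n = 2) and 14.1% ± 0.393 in LB TE (n = 2). In the order of these means Morula and MB TE were neighbours that did not differ beyond their spread, and so were LB PE, MB ICM and LB EPI. The single EB average lay just above the 3 of MB TE and between the 2 of Morula. LB TE lay above EB and below LB PE, from which it differed by less than the SD of LB PE. Depth moved with the share inside some averages. Across cells the rank correlation of share with read total was 0.85 in LB PE of replicate 5 (9 cells), 0.65 in MB ICM of replicate 2 (21 cells), 0.64 in LB EPI of replicate 5 (24 cells) and 0.60 in Morula of replicate 6 (45 cells), and elsewhere it lay between -0.12 and 0.40. Over cells of at least 50000 reads the share was 11.1% in Morula of replicate 6 and 22.9% in LB PE of replicate 5.

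On day 8, 9 of the 81 tested genes were lower in MB TE than in MB ICM and 0 were higher. Of all tested genes 4.11% were called lower and 10.1% in either direction. RPL37A, a zinc-binding protein of the large subunit, stood at 2429, 2146 and 3134 CPM in MB ICM and at 1599, 1469.5 and 1324 CPM in MB TE. Every MB TE average was below every MB ICM average, and RPL37A fell by 0.72 on the log2(CPM + 10) scale (SE 0.21, limma adjusted p = 0.0281). RPLP1, of the acidic stalk that recruits elongation factors, was at 3384, 2879 and 3020.3 CPM in MB ICM and 2244, 2063 and 1701 CPM in MB TE, and fell by 0.60 (SE 0.18, limma adjusted p = 0.0328). Its averages did not overlap either.

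RPS15, a protein of the small subunit's head, was at 2901, 2941 and 3468 CPM in MB ICM and 1743, 2035 and 2269 CPM in MB TE (log2 change -0.61, SE 0.18, limma adjusted p = 0.0378). RPL34 was at 2009, 1857 and 2581 CPM against 1245, 1208 and 1259 CPM (log2 change -0.71, SE 0.22, limma adjusted p = 0.0390). In both genes the MB TE averages lay wholly below those of MB ICM. Among the other calls were RPL12, at the base of the stalk, RPL14 and RPL28, with log2 changes from -0.68 to -0.59.

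Most members had lower values in MB TE, whether called or not. Of the 81 log2 changes 77 were below 0, with a median of -0.48, while the median over all tested genes was -0.04 and 53.9% of them were below 0. In 59 members every MB TE average lay below every MB ICM average, as in 12.3% of all tested genes. In both libraries that held at least 3 cells of each class 74 members were lower in MB TE, as were 34.1% of all tested genes. The members' median change was -0.49 within replicate 1 and -0.32 within replicate 2. The small and large subunits had medians of -0.43 and -0.49. At an unadjusted p under 0.05 in limma stood 51 members, a count not made over all tested genes. A model of counts fitted to summed reads, limma-voom, called 41 lower, with 6.97% of its genes called lower. RPL7L1, RPS3, RPS27L and RPL9 were the 4 members with a change above 0, between 0.03 and 0.12, none of them called.

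Each call on day 8 depended on few libraries. All 9 were lost without replicate 1, 2 or 5, and 8 of 9 without replicate 3, the exception being RPL28. RPL37A had a limma adjusted p of 0.103 without replicate 1, 0.111 without replicate 2, 0.0503 without replicate 3 and 0.0657 without replicate 5, with changes from -0.81 to -0.63. The median over the members stayed between -0.54 and -0.43 when any single library was left out. The keratins KRT8 and KRT18 together took 2.66% to 5.32% of reads in the TE averages of day 8 and 0.119% to 0.197% in MB ICM. Their part in the lower shares was not tested. With median-of-ratios scaling the members' median was -0.49 and the all-gene median -0.04, and 0 members were called.

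**Figure D2:**
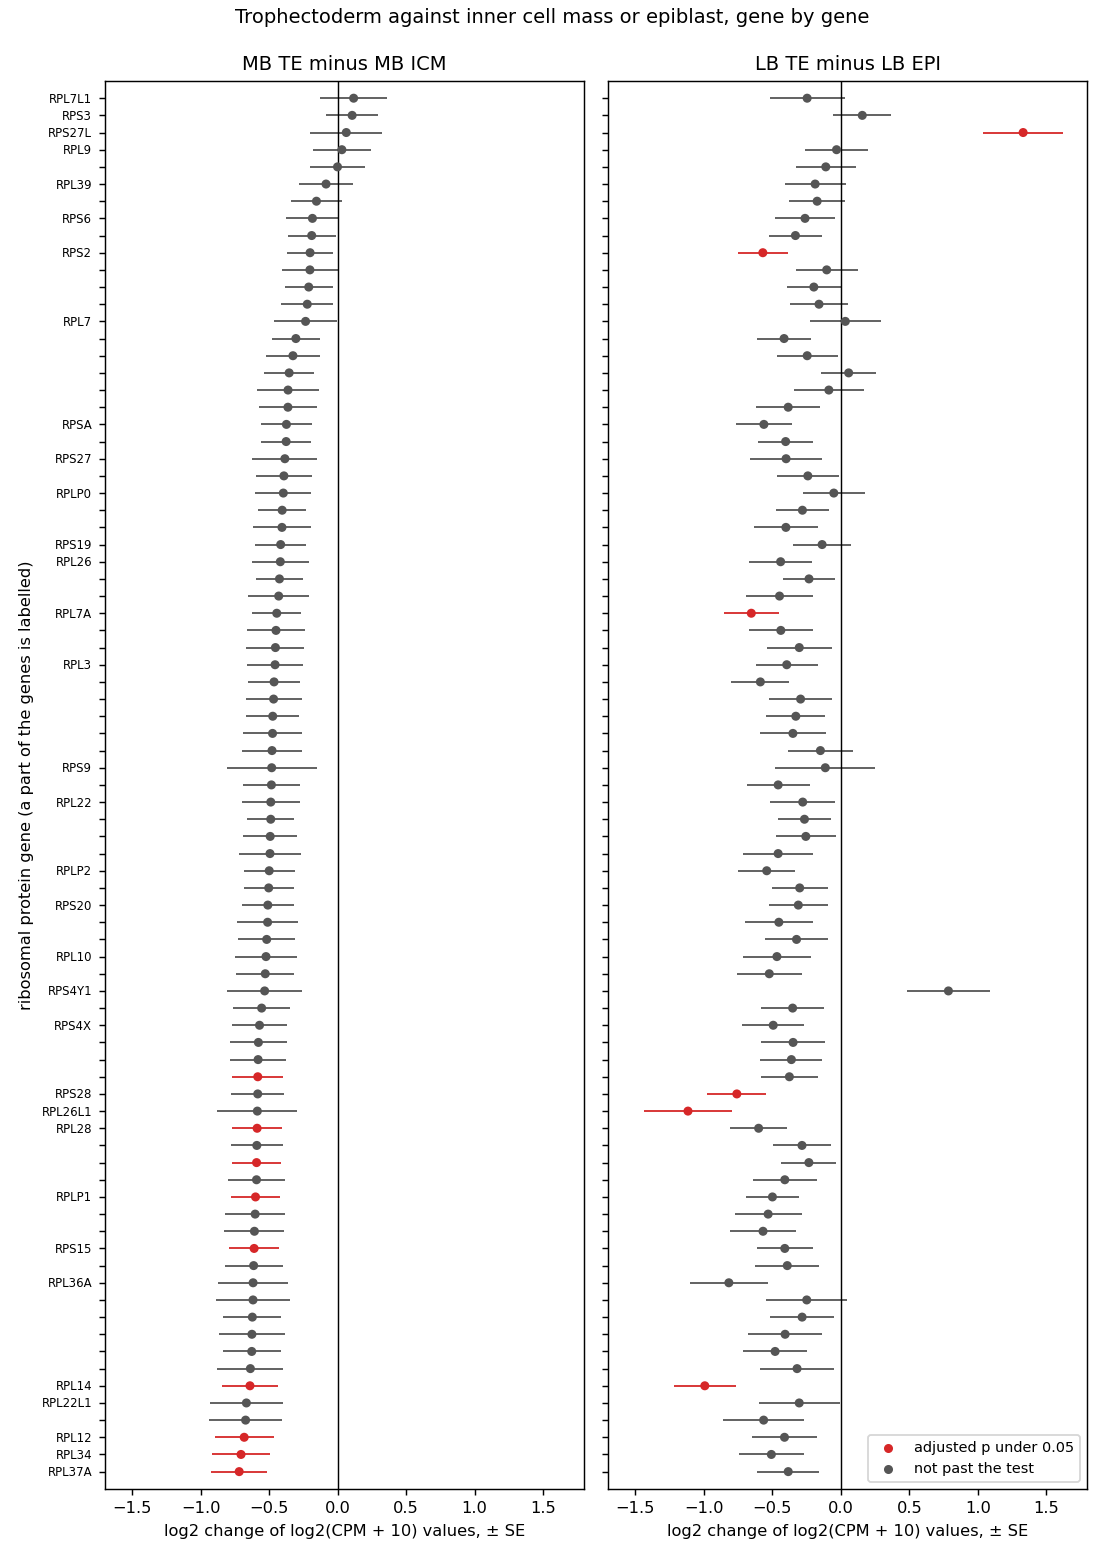
Log2 change with SE (x axis) of each of 81 ribosomal protein genes (y axis, ordered by the day 8 change) for MB TE minus MB ICM (left) and LB TE minus LB EPI (right), with genes at a limma adjusted p under 0.05 in red. On day 8, 77 genes lie below 0; on day 9, 76 do, and RPS27L lies at 1.33.

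On day 9, 5 members were lower and 1 was higher in LB TE than in LB EPI, where 6.9% of all tested genes were lower and 8.27% higher (15.2% in either direction). RPL14, a protein of the large subunit, had averages of 4103, 4856 and 5274 CPM in LB EPI and of 2209 and 2616 CPM in LB TE. It fell by 0.99 (SE 0.23, limma adjusted p = 0.00395). RPS28, of the small subunit, stood at 3005, 2507 and 2896 CPM in LB EPI and at 1456 and 1868 CPM in LB TE, a log2 change of -0.76 (SE 0.21, limma adjusted p = 0.0181). RPL7A, a large-subunit protein, was at 3132, 4012 and 2890.3 CPM against 2406 and 1869 CPM (log2 change -0.65, SE 0.20, limma adjusted p = 0.0289). RPS2, which lines the entry of the messenger channel, was at 5598, 4975 and 4021 CPM against 3391 and 3024 CPM (log2 change -0.57, SE 0.18, limma adjusted p = 0.0382). None of these 4 genes had overlapping averages. RPL26L1, the other fall, and RPS27L, the rise, are relatives of RPL26 and RPS27 and are described with the paralogs.

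Over all members the day 9 median was -0.35, against -0.04 over all tested genes. Of the members' changes 76 of 81 were below 0, as were 54.2% of those of all tested genes. In 52 members the LB TE averages lay wholly below those of LB EPI, as in 23.8% of tested genes. Both libraries with an average of each class gave lower values in LB TE for 71 members (37.8% of tested genes). The medians were -0.27 in replicate 3 and -0.46 in replicate 5. limma-voom called 20 members, where 26.9% of its genes were called. All 6 calls were lost without replicate 3, 5 of 6 without replicate 5 (not RPS27L), 4 without replicate 2 and 2 (RPL7A and RPS2) without replicate 1. Without replicate 3 RPL14 had a limma adjusted p of 0.0981, RPS28 of 0.143, RPL7A of 0.139 and RPS2 of 0.184. Without replicate 5 these were 0.0520, 0.0827, 0.182 and 0.150. Without replicate 2 RPS28 was at 0.0819, RPL7A at 0.0776 and RPS2 at 0.184, and without replicate 1 RPL7A was at 0.0545 and RPS2 at 0.0743.

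Whether the trophectoderm difference itself changed from day 8 to day 9 was tested as an interaction, a comparison added after the data were seen. None of the 81 members was called in limma, where 0.367% of all tested genes were called. An unadjusted p under 0.05, not counted over all tested genes, was reached by 2 members. Those 2 were RPS27L, with a difference of 1.27 (adjusted p = 0.194), and RPS4Y1, with a difference of 1.32 (adjusted p = 0.198).

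**Figure D3:**
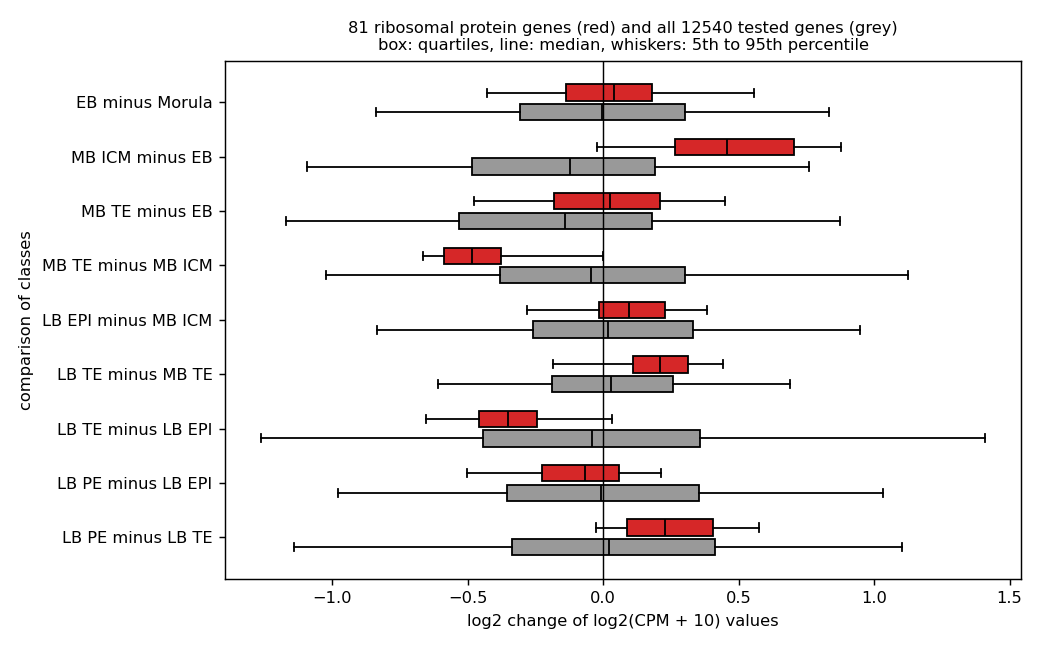
Log2 changes (x axis) of the 81 tested ribosomal protein genes (red) and of all 12540 tested genes (grey) in 9 comparisons of classes (y axis), with boxes for quartiles, lines for medians and whiskers from the 5th to the 95th percentile. The members' medians are -0.48 and -0.35 in the comparisons of trophectoderm with MB ICM and LB EPI and 0.46 for MB ICM minus EB.

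Between days 6 and 7, from Morula to EB, 0 of 81 members were called (0.0797% of all tested genes), and limma-voom called 0 (0.23% of its genes). At an unadjusted p under 0.05 in limma stood 5, a count not made over all tested genes. The median change was 0.04, and -0.15 without the Morula average of replicate 6. EB has 1 average, which is assumed to vary like those of the other classes.

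From EB to MB ICM, a step that runs across different libraries, the members' median was 0.46, with 74 of 81 changes above 0. Over all tested genes the median was -0.12, with 60.6% of changes below 0. With median-of-ratios scaling these medians were 0.73 and 0.01. No member passed the limma test (0.175% of all tested genes did), and limma-voom called 0 (0.425% of its genes). An unadjusted p under 0.05 in limma was found for 24, a count not made over all tested genes. In 65 members all 3 MB ICM averages lay above that of EB, as in 15.9% of tested genes. The largest change was that of RPS19, a small-subunit protein known from Diamond-Blackfan anaemia in humans, at 1.02 (limma adjusted p = 0.251). From EB to MB TE the median was 0.03 (0.30 with median-of-ratios scaling). Here 0 members were called in limma or limma-voom (0.997% of all tested genes in limma, 3.22% in limma-voom). An unadjusted p under 0.05 in limma was found for 2, again not counted over all tested genes.

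From MB ICM to LB EPI the members' median was 0.10, and 1 member, RPS4Y1, was called lower, against 1.81% of all tested genes lower and 5.1% in either direction. From MB TE to LB TE 0 were called in limma or limma-voom (0.191% of all tested genes in limma, 0.536% in limma-voom). At an unadjusted p under 0.05 in limma stood 3, a count not made over all tested genes. The members' median was 0.21, with 69 of 81 changes above 0. Over all tested genes the median was 0.03, with 45.8% of changes below 0. In 35 members both LB TE averages lay above the 3 of MB TE, as in 12.7% of tested genes. Replicate 3 was the only library with at least 3 cells of both classes. Its share was 11.9% in MB TE, from 3 cells, and 14.4% in LB TE.

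In the hypoblast class the 2 libraries with an average differed. The trophectoderm keratins KRT8 and KRT18 together took 0.548% of reads in LB PE of replicate 3 and 0.192% in replicate 5. The 5 trophectoderm markers summed to 5750 CPM in replicate 3 and 2081 CPM in replicate 5, and their part in the difference was not tested. Against LB EPI, 2 members were higher (RPS27L and RPS4Y1) and 1 lower (RPL26L1) in LB PE, where 5.39% of all tested genes were called. The members' median was -0.07, at -0.20 within replicate 3 and 0.02 within replicate 5. Against LB TE 0 were called (5.85% of all tested genes), and limma-voom called 4 (4.76% of its genes). At an unadjusted p under 0.05 in limma stood 7, a count not made over all tested genes. The members' median was 0.23, and 75 of 81 changes were above 0. Over all tested genes the median was 0.02, with 46.8% of changes below 0. Within replicate 3 the medians of members and of all tested genes were 0.03 and 0.08. Within replicate 5 they were 0.48 and -0.07. Left out in turn, replicate 3 gave a members' median of 0.48 and replicate 5 one of 0.03. Cells of LB PE were shallow, at a median of 39210 reads, and the 2 averages rest on 14 and 9 of them.

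The stalk proteins, RPSA and RPS6 were followed in the trophectoderm comparisons. RPLP0, the scaffold of the stalk, was at 5643, 4329 and 5066 CPM in MB ICM and 3963, 3749 and 3476 CPM in MB TE, without overlap, but at a limma adjusted p of 0.255 (log2 change -0.40, SE 0.20). On day 9 its averages of 4274, 4550.1 and 4144 CPM in LB EPI overlapped those of LB TE, 4508 and 3891 CPM. RPLP2, the partner of RPLP1, was at 2425, 2658 and 2169.8 CPM in MB ICM and 1679, 1666 and 1634 CPM in MB TE (log2 change -0.50, limma adjusted p = 0.0956). RPLP1 and RPLP2 had day 9 changes of -0.50 and -0.54 (limma adjusted p = 0.0935 and 0.0843), while that of RPLP0 was -0.05.

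RPSA, a small-subunit protein that is also known as a laminin receptor, was at 968 and 854 CPM in Morula, 1256 CPM in EB, 1589.9, 1586 and 1981 CPM in MB ICM and 1885, 2311 and 2252 CPM in LB EPI. In trophectoderm it was at 1105, 1288 and 1596 CPM on day 8, overlapping MB ICM, and at 1451 and 1507 CPM on day 9, below LB EPI (log2 change -0.56, SE 0.20, limma adjusted p = 0.0691). RPS6, the substrate of the S6 kinases, had changes of -0.18 and -0.26 in the 2 trophectoderm comparisons (limma adjusted p = 0.647 and 0.503). It stood at 1392, 1364 and 1374 CPM in MB TE and 1638, 1493 and 1648 CPM in MB ICM.

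Relative to the members' summed level most genes moved little. The SD of that log2 ratio over the 16 averages had a median of 0.20 over the 81 genes (quartiles 0.17 and 0.26). The smallest value was 0.10, in RPS20. RPS27L (0.75), RPL26L1 (0.65), RPS4Y1 (0.57) and RPS9 (0.46) had the largest. RPS9 lies near the filter on low values, whereas the first 3 are paralogs of other members.

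RPS27L, a close relative of RPS27, was at 346 and 416 CPM in Morula and 198 CPM in EB. It stood at 204, 212 and 236 CPM in MB ICM and at 335, 204 and 151 CPM in MB TE. On day 9 it was at 124, 87.6 and 144 CPM in LB EPI, 279.9 and 313 CPM in LB PE, and 319.5 and 291 CPM in LB TE. The day 8 classes overlapped, and on day 9 LB EPI lay below both other classes in every average. RPS27L was higher in LB TE than in LB EPI by 1.33 (SE 0.29, limma adjusted p = 0.0031) and in LB PE by 1.29 (SE 0.29, limma adjusted p = 0.0115). These 2 comparisons share the LB EPI averages. Without replicate 3 the limma adjusted p was 0.094 for LB TE and 0.0816 for LB PE, and without replicate 5 it was 0.0705 for LB PE.

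RPS27 itself, a small-subunit protein with a zinc finger, was at 3163, 4267 and 5589 CPM in LB EPI and 3073 and 3549 CPM in LB TE, with overlapping averages (log2 change -0.40, SE 0.26, limma adjusted p = 0.366). In LB PE it was at 2269 CPM in replicate 3 and 4870.0 CPM in replicate 5.

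RPL26L1, a close relative of RPL26, was at 145 and 191 CPM in Morula, 106 CPM in EB, 88.9, 95.3 and 88.3 CPM in MB ICM and 78.0, 52.9 and 41.0 CPM in MB TE. On day 9 it was at 150.2, 157 and 116 CPM in LB EPI, 37.2 and 84.4 CPM in LB PE and 60.9 and 56.0 CPM in LB TE. LB EPI lay above both other day 9 classes without overlap. RPL26L1 fell by 1.12 in LB TE (SE 0.32, limma adjusted p = 0.0217) and by 1.15 in LB PE (SE 0.32, limma adjusted p = 0.0408). The LB TE call was lost without replicate 2 (0.078), 3 (0.0936) or 5 (0.0738), and the LB PE call without replicate 1 (0.0532), 2 (0.132) or 3 (0.415), as limma adjusted p. Without replicate 3 the LB PE change was -0.57, and without replicate 5 it was -1.76. RPL26 was at 865, 833 and 850.5 CPM in LB EPI and 722 and 551 CPM in LB TE (log2 change -0.44, limma adjusted p = 0.236).

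RPS4Y1 bears the name of a gene of the primate Y chromosome, but the bovine RefSeq gene table (assembly ARS-UCD2.0) places it on an autosome. It was at 337, 363 and 254 CPM in MB ICM and at 198, 86.5 and 161 CPM in LB EPI, without overlap (log2 change -1.04, SE 0.28, limma adjusted p = 0.0305). In LB PE it was at 359 and 268 CPM, above LB EPI by 1.15 (SE 0.31, limma adjusted p = 0.0303). In LB TE it was at 230.4 and 248 CPM, also above LB EPI in every average but not called (log2 change 0.78, limma adjusted p = 0.0924). The fall from MB ICM was lost without replicate 1 (0.0968), 2 (0.103), 3 (0.119) or 5 (0.0758), and the rise in LB PE without replicate 3 (0.300) or 5 (0.0622), as limma adjusted p. That rise was 0.62 without replicate 3 and 1.54 without replicate 5. Its X-linked relative RPS4X was at 3203, 2450.0 and 2489.8 CPM in LB EPI and 1795, 2579 and 2874 CPM in MB ICM, which overlap.

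**Figure D4:**
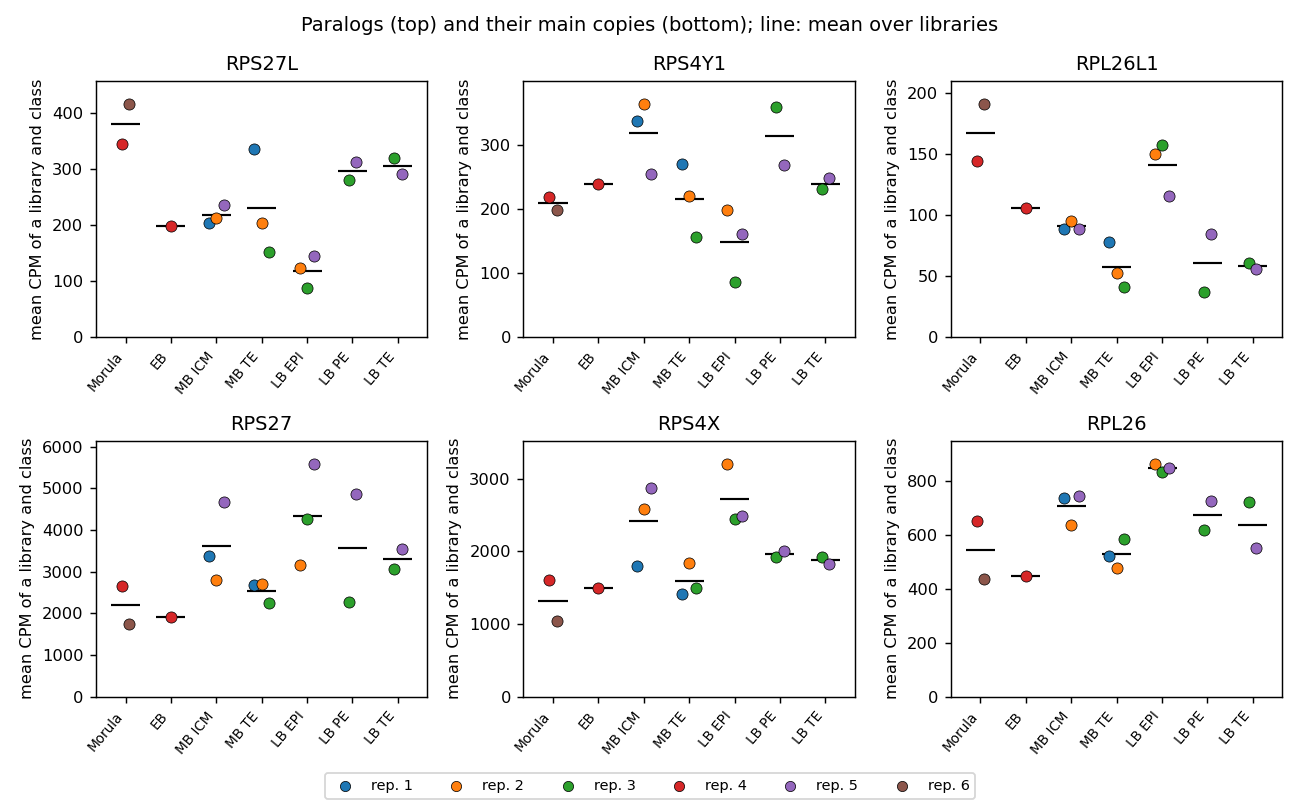
Levels (y axis, mean CPM of a library and class) of RPS27L, RPS4Y1 and RPL26L1 (top) and of RPS27, RPS4X and RPL26 (bottom) by class (x axis), with 1 coloured point per library and lines for class means. RPS27L in LB EPI lies at 87.6 to 144 CPM, below LB PE and LB TE at 279.9 to 319.5 CPM, and RPL26L1 in LB EPI lies above them.

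The remaining paralog pairs gave no call. RPL22L1, a relative of RPL22, was at 57.2 and 46.3 CPM in Morula and at 121 to 156 CPM in MB ICM and 153 to 188 CPM in LB EPI. In MB TE it was at 56.6, 88.4 and 116 CPM, below MB ICM without overlap (log2 change -0.67, SE 0.27, limma adjusted p = 0.124). RPL22 was at 839 and 513 CPM in Morula and 743 to 986 CPM in MB ICM. RPL7L1 ranged from 155 to 279.7 CPM over the 16 averages and RPL7 from 830.3 to 2105 CPM. RPL7L1 had changes of 0.12 and -0.25 in the trophectoderm comparisons of days 8 and 9, and RPL7 of -0.23 and 0.03. RPL3, at the peptidyl transferase centre, was at 2103, 1974 and 2187 CPM in MB ICM and 1428, 1653 and 1456 CPM in MB TE (log2 change -0.46, limma adjusted p = 0.176).

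Of the 4 X-linked members, RPL10, RPL36A, RPL39 and RPS4X, none was called in a comparison of classes. RPL36A, of the large subunit, was at 1443, 992 and 1431 CPM in LB EPI and 667 and 721 CPM in LB TE, without overlap (log2 change -0.82, SE 0.28, limma adjusted p = 0.0552). RPS4X had changes of -0.57 on day 8 and -0.49 on day 9 (limma adjusted p = 0.081 and 0.162), and RPL10, which completes the large subunit late in its assembly, of -0.52 and -0.47 (limma adjusted p = 0.161 and 0.247). RPL10 was at 7117 CPM in LB EPI and 6519 CPM in MB ICM of replicate 2, its highest averages. RPL39 had changes of -0.09 and -0.19, and overlapped in both comparisons.

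Genes that make, use or control ribosomes were counted by lists. The lists held 4 ribosomal proteins whose names fall outside the rule, among them FAU, RACK1 and RPL36AL. All 4 had a day 8 change below 0 in MB TE, and 0 were called (10.1% of all tested genes were called). FAU, a ubiquitin-like fusion with a small-subunit protein, fell in LB TE against LB EPI by 0.72 (SE 0.22, limma adjusted p = 0.0254). In that comparison 6.9% of all tested genes were lower.

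Of 40 genes of ribosome assembly and ribosomal RNA processing, 4 fell and 0 rose in MB TE (4.11% of all tested genes fell), with a median of -0.27. These were IMP4 (-0.98), GNL3 (-0.85), LTV1 (-1.02) and NOP16 (-1.04), with limma adjusted p from 0.0210 to 0.0478. The list summed to 0.549% to 0.566% of reads in MB TE and 0.679% to 0.779% in MB ICM. On day 9, 2 of the 40 fell and 0 rose in LB TE against LB EPI (6.9% of all tested genes fell), with a median of -0.20. DKC1, the pseudouridine synthase of small nucleolar particles, stood at 263 ± 45.0 CPM in LB TE (n = 2) and 621 ± 131 in LB EPI (n = 3). It fell by 1.14 (limma adjusted p = 0.00802). RRP12 fell by 1.77 (limma adjusted p = 0.0118). In LB PE RRS1 was higher than in LB EPI by 1.28 (limma adjusted p = 0.0274), but by 0.12 over cells of at least 50000 reads (limma adjusted p = 0.903). Of 14 RNA polymerase I genes 11 were in the table, of which TAF1D fell in MB TE (-1.15, limma adjusted p = 0.0137) and UBTF, the polymerase's upstream binding factor, fell in LB TE (-1.39, limma adjusted p = 0.00677).

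Other genes with the 5′ pyrimidine tract, 13 in number and mostly translation factors, had medians of -0.24 in MB TE and -0.21 in LB TE. Of all tested genes 4.11% fell in MB TE and 6.9% in LB TE, and of these 13 genes 0 and 2 fell. Those were NAP1L1, a histone chaperone (-0.93, limma adjusted p = 0.0146), and HNRNPA1, an RNA-binding protein (-0.78, limma adjusted p = 0.0299). NAP1L1 rose from MB ICM to LB EPI by 1.19 (limma adjusted p = 0.00337) and was lower in LB PE than in LB EPI by 1.06 (limma adjusted p = 0.0162). Of 17 other initiation factors 1 was called, EIF2S3, higher in LB TE than in LB EPI (1.18, limma adjusted p = 0.0147). In that comparison 8.27% of all tested genes were higher.

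Among 16 genes of growth control the 5 calls in LB TE on day 9 went in both directions (15.2% of all tested genes were called). MYC (1.09), the S6 kinase gene RPS6KB1 (1.38), RPTOR (1.23), the scaffold of mTOR complex 1, and RPS6KA1 (1.39) were higher in LB TE than in LB EPI, and MYCN (-1.20) was lower, with limma adjusted p from 0.00802 to 0.0257. MYC was at 13.3 ± 0.413 CPM in LB TE (n = 2) and 1.07 ± 0.0238 in LB EPI (n = 3), so its log2 change is understated by the pseudocount of 10. The sizes of all 5 changes moved with the processing. Over the alternatives run they ranged from 0.31 to 3.645 in MYC, 0.63 to 1.93 in RPS6KB1 and 0.425 to 2.94 in RPTOR. For RPS6KA1 the range was 0.55 to 2.34, and for MYCN -1.58 to -0.60. RPS6KA1 was also higher in LB PE (2.11, limma adjusted p = 0.00206), with changes of 0.97 to 3.12 over the alternatives. MYCN rose from MB ICM to LB EPI (1.22, limma adjusted p = 0.0305), with changes of 0.60 to 1.62. None of the 16 was called in MB TE against MB ICM (10.1% of all tested genes were called).

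These calls rested on few libraries too. In MB TE against MB ICM all 5 of them were lost without replicate 2 or 3, 4 without replicate 1, 3 without replicate 5, and NOP16 also without replicate 4 (limma adjusted p = 0.0626) or 6 (0.0549). In LB TE against LB EPI 10 of 12 were lost without replicate 3, 9 without replicate 5, 5 without replicate 2 and 1 without replicate 1, and UBTF was kept in every such fit. In LB PE against LB EPI 2 of 3 were lost without replicate 2, 3 or 5. From MB ICM to LB EPI NAP1L1 was lost without replicate 2 (limma adjusted p = 0.0536), and MYCN without replicate 1, 2, 3 or 5.

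Mitochondrial ribosomal proteins, which serve a separate ribosome, had a median of -0.10 in MB TE, with 0 of 78 called (10.1% of all tested genes), and of 0.16 in LB TE, with 4 higher and 1 lower (15.2% of all tested genes). They summed to 0.797% to 0.923% of reads in MB TE and 0.905% to 0.987% in MB ICM, and to 0.776% and 0.792% in LB TE and 0.637% to 0.804% in LB EPI. Proteasome genes, of which 36 of 38 were tested, had a median of 0.00 in MB TE, with 1 lower (4.11% of all tested genes). In LB TE their median was 0.05, with 2 higher (8.27% of all tested genes). They summed to 0.694% to 0.885% of reads in MB TE and 0.892% to 1.21% in MB ICM. Whether the members differ from these lists was not tested.

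**Figure D5:**
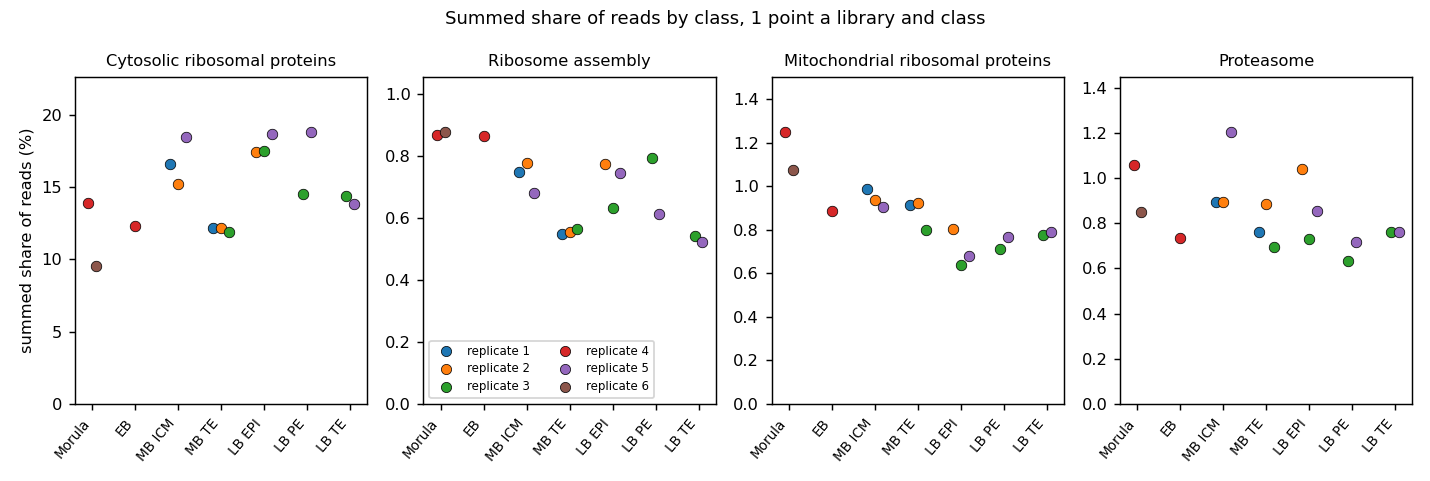
Summed share of reads (y axis, percent) by class (x axis) for the 82 cytosolic ribosomal protein genes, 40 ribosome assembly genes, 78 mitochondrial ribosomal protein genes and 38 proteasome genes, with 1 point per library and class. MB TE lies below MB ICM without overlap in the cytosolic, assembly and proteasome panels, and the 2 classes overlap in the mitochondrial panel.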

How the data were processed

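Single-cell RNA of 6 wildtype libraries was used. The authors deposited natural log values, ln(1 + value per 10000), and a table of 288 cells with class and day, 2 of them without values. Per the submitters' processing notes, Trim Galore, HISAT2, featureCounts and Seurat were used with the build ARS-UCD1.2. Not given in the sources used here are their settings, the assignment of classes and whether reads were collapsed by molecular identifiers. Undoing the log gave 10000 per cell and whole reads within 0.1 for 100% of values, 48628984 reads in all, so intervals cover counting error alone.

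Values per 1000000 (CPM) were averaged within each library and class of at least 3 cells and taken as log2(CPM + 10). A gene was tested when it reached 10 CPM in as many averages as the smallest class has (12540 genes). One limma 3.58.1 fit in R 4.3.3 covered all 7 classes, with library as a random block (statmod 1.5.0, data.table at 1.17.8), since a library gave cells of several classes. The consensus correlation was 0.18. P-values were adjusted by Benjamini-Hochberg, and genes under 0.05 were called. The script was tested on simulated data. Shares, counts of non-overlapping averages and figures were made in Python 3.11.15 (pandas 2.3.3, numpy 2.4.6, scipy 1.17.1, matplotlib 3.10.9).

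Named were up to 5 called members per direction and comparison with the smallest adjusted p, fixed paralog pairs, the stalk, RPSA, RPS6, X-linked members and up to 3 genes per pathway list. RPL12, RPL14 and RPL28 on day 8, the members with the largest spread, RPL9, RPS3 and RPS19 were added after their values were seen. Some genes that met the rule are not reported here. Members and lists were chosen with earlier results of these data known. The RefSeq gene list of another assembly, ARS-UCD2.0, matched all 82 members by name and gave X linkage. Alternatives covered the pseudocount, filter, cells per average, scaling, averaging, depth, the block, limma-voom and each library.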

Additional observations from a re-analysis of the deposited data

How the results depend on the processing

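Among the called members and the called pathway genes named above, none changed direction under any of the alternatives run. Called genes of the mitochondrial ribosomal and proteasome lists were not checked for this. The count of called members in MB TE against MB ICM (9) was 2 with a pseudocount of 50, 0 with no filter, with at least 5 cells per average, with median-of-ratios scaling and with the mean of log2 values, 41 with limma-voom, 17 over cells of at least 50000 reads, and 0 to 19 when 1 library was left out. In LB EPI against MB ICM (1) it was 0 with no filter or the mean of log2 values, 2 with limma-voom or over deep cells, and 0 to 1 with 1 library left out. In LB TE against LB EPI (6) it was 3 with median-of-ratios scaling, 10 with scaling to non-member reads, 20 with limma-voom and 0 to 8 with 1 library left out. In LB PE against LB EPI (3) it was 1 with no filter, the mean of log2 values, limma-voom or deep cells, and 0 to 3 with 1 library left out. In LB PE against LB TE (0) it was 4 with limma-voom and 5 over deep cells. With no replicate block the count was 1 in MB TE against MB ICM and 1 in LB PE against LB EPI, and no other count moved by over 1.5 times. The EB share was 12.6% over deep cells and 12.5% from summed reads, and that of MB TE 11.7% from summed reads. Where leaving out a library left a class with 1 average, that average was assumed to vary like the others. Comparisons with EB had no fit without replicate 4, which holds its only average. Over all genes, calls in MB TE against MB ICM (1264) were 818 with at least 5 cells per average and 635 without replicate 2. In LB PE against LB EPI (676) they were 387 with no replicate block. The cause of these differences was not tested. Members that were not called changed sign in 14 of 1200 refitted values in LB TE against LB EPI and 15 of 1152 in MB TE against MB ICM, the lowest counts, and in up to 94 of 1248 in LB PE against LB EPI, the highest of the 9 comparisons. Over deep cells the share moved from 9.52% to 11.1% in Morula of replicate 6 and from 18.8% to 22.9% in LB PE of replicate 5.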
